A study of Mus musculus with 33 samples.

Results

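HSF1 and SRF binding was examined at 10 AP-1 and early stress genes of the mouse: Jun, Junb and Jund, Fos, Fosb and Fosl1, Atf3, Ccn1 and Ccn2, and Ier5. The genes were chosen by name with earlier results of these data known, so their counts and values are a description. A peak was assigned to a gene when its summit fell inside the annotated gene or at most 10 kb beyond either end. The rule found 56 of the 45686 peaks in 15 peak lists, of which 32 came from wild type cells and 24 from HSF1 knockout cells. Overlapping peaks of all lists were joined into 22 sites: 10 sites held wild type peaks, 12 held knockout peaks only, and 4 of the 10 held both.

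The cells were mouse embryonic fibroblasts (MEFs, cultured from embryos) of the strain background 129Sv.BALB/c, and binding was measured by ChIP-seq. Wild type and HSF1-/- MEFs were sampled unstressed (before heat shock) and when heat shock had lasted 12 or 60 min, with antibodies labelled CS (Cell Signaling #4356) and MM (a gift from the Morimoto lab), and wild type MEFs also with an SRF antibody (D71A9, Cell Signaling #5147). CS and MM were taken as HSF1 antibodies because the file headers carry the name Hsf1, although no label states what they recognise. Each of the 15 combinations of genotype, time and antibody had 1 peak list, so there was no replicate error and no test between conditions, and the other 18 of the 33 samples were not analysed here.

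The wild type lists held 14.0 to 26.3 M tags after duplicate removal and the headers name a merge of 2 replicates. The knockout lists held 5.18 to 15.6 M, name no merge and were called without a control library, so peak numbers are not on 1 scale between the genotypes. The SRF libraries held 0.751 to 1.55 M tags after duplicate removal. The headers give 73% to 85% of their tags as redundant, against 6% to 11% in the CS and MM libraries. Tags, fold enrichment and false discovery rate (FDR) of a peak are the authors' values and are used only within their own list. The rank of a peak is its place among all peaks of its list by tags, and ranks from lists of different length show no change. CS and MM lists of 1 time share their IgG control.

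AP-1 is a family of dimeric transcription factors built from JUN, FOS and ATF proteins, and its genes are known for fast transcription after growth factors and stress. HSF1 is the factor that drives heat shock transcription and binds inverted repeats of the unit GAA, the heat shock element. SRF binds the CArG box and is known for its role at Fos and other immediate early genes. Peaks in HSF1-/- cells are those listed for each antibody where the HSF1 gene is deleted. They were called without a control library, so their source was not tested.

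The annotated start of 4 of the 10 genes lay under a wild type peak: Jun, Ccn1, Atf3 and Fos. Their 250 bases upstream of the start are printed because the summits of the wild type peaks fell in or beside them. Sequences are from RefSeq (GRCm38.p6), 5′ to 3′ on the strand of the gene, at chr4:95052223-95052472 (minus strand) for Jun, chr3:145649986-145650235 (minus) for Ccn1, chr1:191183334-191183583 (minus) for Atf3 and chr12:85473640-85473889 (plus) for Fos. Capitals mark a match to GAANNTTC or TTCNNGAA (the short heat shock element) or to TGACNTCA (a variant of the cAMP response element).
Jun: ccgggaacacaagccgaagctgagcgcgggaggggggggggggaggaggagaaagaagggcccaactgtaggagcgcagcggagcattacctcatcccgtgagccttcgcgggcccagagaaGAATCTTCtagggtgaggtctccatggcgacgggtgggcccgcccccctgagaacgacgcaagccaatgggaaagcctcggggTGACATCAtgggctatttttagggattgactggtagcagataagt
Ccn1: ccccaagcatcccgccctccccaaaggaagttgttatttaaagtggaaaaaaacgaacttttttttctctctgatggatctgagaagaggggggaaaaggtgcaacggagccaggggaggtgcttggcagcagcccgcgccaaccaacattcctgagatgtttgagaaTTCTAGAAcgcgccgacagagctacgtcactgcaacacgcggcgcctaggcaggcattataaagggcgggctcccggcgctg
Atf3: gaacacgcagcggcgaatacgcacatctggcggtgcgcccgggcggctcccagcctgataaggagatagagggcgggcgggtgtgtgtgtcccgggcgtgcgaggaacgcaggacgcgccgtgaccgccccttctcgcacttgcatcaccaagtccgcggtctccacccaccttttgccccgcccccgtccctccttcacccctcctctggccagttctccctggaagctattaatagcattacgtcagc
Fos: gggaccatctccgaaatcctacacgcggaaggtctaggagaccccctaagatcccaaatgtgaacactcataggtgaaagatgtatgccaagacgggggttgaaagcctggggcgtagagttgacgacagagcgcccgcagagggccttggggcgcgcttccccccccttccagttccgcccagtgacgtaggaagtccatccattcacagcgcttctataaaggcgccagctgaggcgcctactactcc

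Upstream sequences were found for 8 of the 10 genes, all but Fosl1 and Ccn2. Only the 250 bases upstream of each annotated start were searched, on both strands, so a site farther out would be missed. GAANNTTC occurred in 6.69% of the 32851 promoters of the table and in Jun, as GAATCTTC from 128 to 121 bases upstream. TTCNNGAA occurred in 7.17% of all promoters and in Ccn1, as TTCTAGAA from 82 to 75 bases upstream. Either form was found in 12.8% of all promoters and in 2 of the 8 described here. TGACNTCA was found in 7.49% of all promoters and in Jun, as TGACATCA from 45 to 38 bases upstream. This variant was searched after the sequences had been seen, and the search for it includes the consensus TGACGTCA, which 1.55% of all promoters held and none of the 8. The longer heat shock element GAANNTTCNNGAA was found in 0.466% of all promoters, the AP-1 site TGANTCA in 6.75% and the CArG box in 1.47%. None of these was found in the stretches searched at the 8 genes. AP-1 sites were counted in the form TGANTCA only, and cAMP response elements as TGACGTCA and TGACNTCA only. These counts thus do not show that the 8 genes lack AP-1 sites, cAMP response elements or CArG boxes. A match is a match of letters only.

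HSF1 was found by both antibodies at none of the 10 genes before heat shock, at 5 after 12 min (Jun, Jund, Fos, Ccn1 and Ier5) and at 6 after 60 min, when Atf3 was added. A gene counted when a region of overlapping CS and MM peaks (a shared region) had its summit in the window. Of the 21631 protein-coding genes, 0.532% had such a region in unstressed cells, 5.33% at 12 min and 11.2% at 60 min. Because the choice of the 10 genes was made with earlier results of these data known, the difference from these shares is no test of enrichment. The 10 genes are short, from 1840 to 13038 bp, and among the 9152 protein-coding genes no longer than the longest of them the shares were 0.372%, 3.38% and 6.51%. Counted with CS alone, the genes were the same 5 and 6 at 12 and 60 min, against 6.41% and 13.9% of all genes, and with MM alone they were again the same, against 7.23% and 15.4%. Within the 10 kb window, Junb, Fosb and Ccn2 had no wild type peak in any list, and Fosl1 had 1 peak of 1 antibody.

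The count depended on how near and how strong a peak had to be. With a window of 1 kb the 12 min count was 3 (Jun, Jund and Ccn1), since the regions at Fos and Ier5 lay farther out. With p of 1e-10 or less in both lists it was 2 (Fos and Jun). At 60 min, an overlap of 50% of both peaks left 2 genes (Atf3 and Jun).

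**Figure D1:**
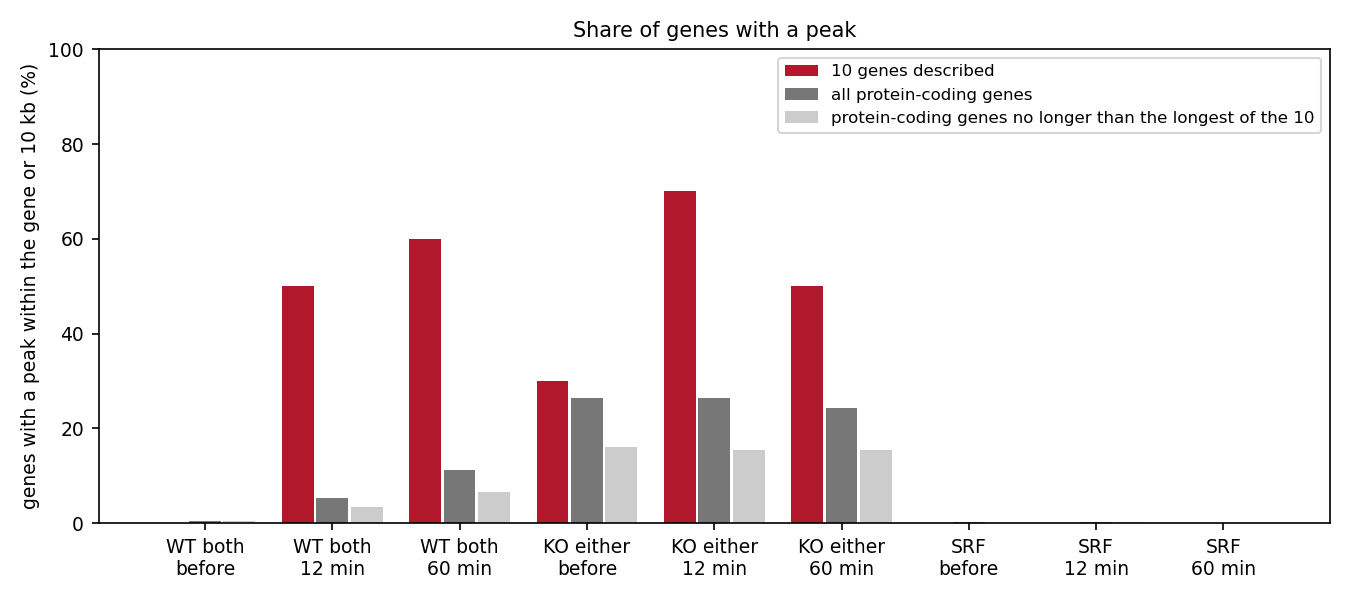
Share of genes (%) with a peak in the gene or 10 kb beyond it, for the 10 genes described, all protein-coding genes and the short ones among them. WT both: wild type region of CS and MM; KO either: HSF1 knockout peak of CS or MM. The 10 genes stand at 50% and 60% in heat shocked wild type cells, against 5.33% and 11.2% of all genes. They were chosen with earlier results of these data known, so the bars are a description.

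Among the JUN genes, the partners that every FOS protein needs, Jun and Jund had HSF1 regions from 12 min on and Junb had none. Jun carried its peak over the start of the gene. At 12 min the CS peak held 183 tags (rank 203 of 1781, FDR 2.14%) and the MM peak 100 tags (rank 223 of 1927, FDR 0.79%). At 60 min the CS peak held 293 tags (rank 284 of 4773, FDR 0.49%) and the MM peak 235 tags (rank 147 of 4614, FDR 0.24%). All 4 thus stood in the first 12% of their lists by tags, while by fold enrichment they stood between 39.6% and 41.2% (28.5-fold, 16.9-fold, 34.9-fold and 22.9-fold, in the same order). No wild type peak was listed at Jun before heat shock.

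The Jun peaks were also wide. At 60 min the MM peak spanned 3195 bp, the third widest of its 4614, and the CS peak 2858 bp, against list medians of 621 and 924 bp. At 12 min the widths were 1063 bp (MM) and 1518 bp (CS). The regions, chr4:95051514-95053031 at 12 min and chr4:95050247-95053722 at 60 min, covered the start of Jun and part of its body. They also covered the start of Junos, a long noncoding RNA gene that runs the other way from position 95052317. The 4 summits lay 76, 114, 83 and 117 bp upstream of the Jun start, which places them 7.5 to 48.5 bp from the centre of GAATCTTC and 34.5 to 75.5 bp from that of TGACATCA.

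Knockout peaks lay under the same Jun regions. The knockout MM list at 12 min had a peak of 10 tags and 119 bp with its summit 15 bp inside the gene, and the knockout CS list at 60 min one of 6 tags and 83 bp with its summit 155 bp upstream. Their summits were 91 and 38 bp from the nearest wild type summit. The knockout CS list before heat shock had a peak of 7 tags 1487 bp beyond the far end of Jun, away from any wild type peak. By tags these 3 ranked 931 of 5996, 1533 of 5964 and 1079 of 7813. The part of this signal in the wild type peaks was not tested.

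Jund, the JUN protein known for steady expression in unstimulated cells, had its HSF1 region past its far end and not at its start. At 12 min the CS peak held 69 tags (rank 846, FDR 5.25%) and the MM peak 52 tags (rank 621, FDR 1.38%), with summits 612 and 674 bp beyond the gene. At 60 min the CS peak held 244 tags (rank 414, FDR 0.48%) with its summit 622 bp beyond the gene, and the MM list split the site in 2, a peak of 81 tags (rank 858) 610 bp beyond the gene and one of 86 tags (rank 795) inside it, 999 bp from the start. The 60 min CS peak of 3747 bp, the 19th widest of 4773, ran across both. The site, chr8:70698015-70701761, reaches from inside Jund into the next gene, Iqcn, whose annotated span begins at position 70701321, so it cannot be given to Jund alone.

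The peak inside Jund had the weaker enrichment of the pair: 8.15-fold, rank 4424 of 4614 by fold, against 21.6-fold, rank 2025, for the one beyond the gene. Because the MM peak with more tags was the inner one, the CS and MM summits of the 60 min region were 2500 bp apart, against a median of 19 bp over all 3455 wild type regions of that time. A knockout CS peak of 4 tags and 42 bp lay under the site at 12 min, 174 bp beyond the gene, and 436 bp from the nearest wild type summit. Its part in the result was not tested.

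Junb, an early response gene of the same family, was marked in 1 of the 15 lists. The knockout CS list at 12 min had a peak of 7 tags and 106 bp, rank 586 of 5372, with its summit 670 bp beyond the far end of the gene.

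**Figure D2:**
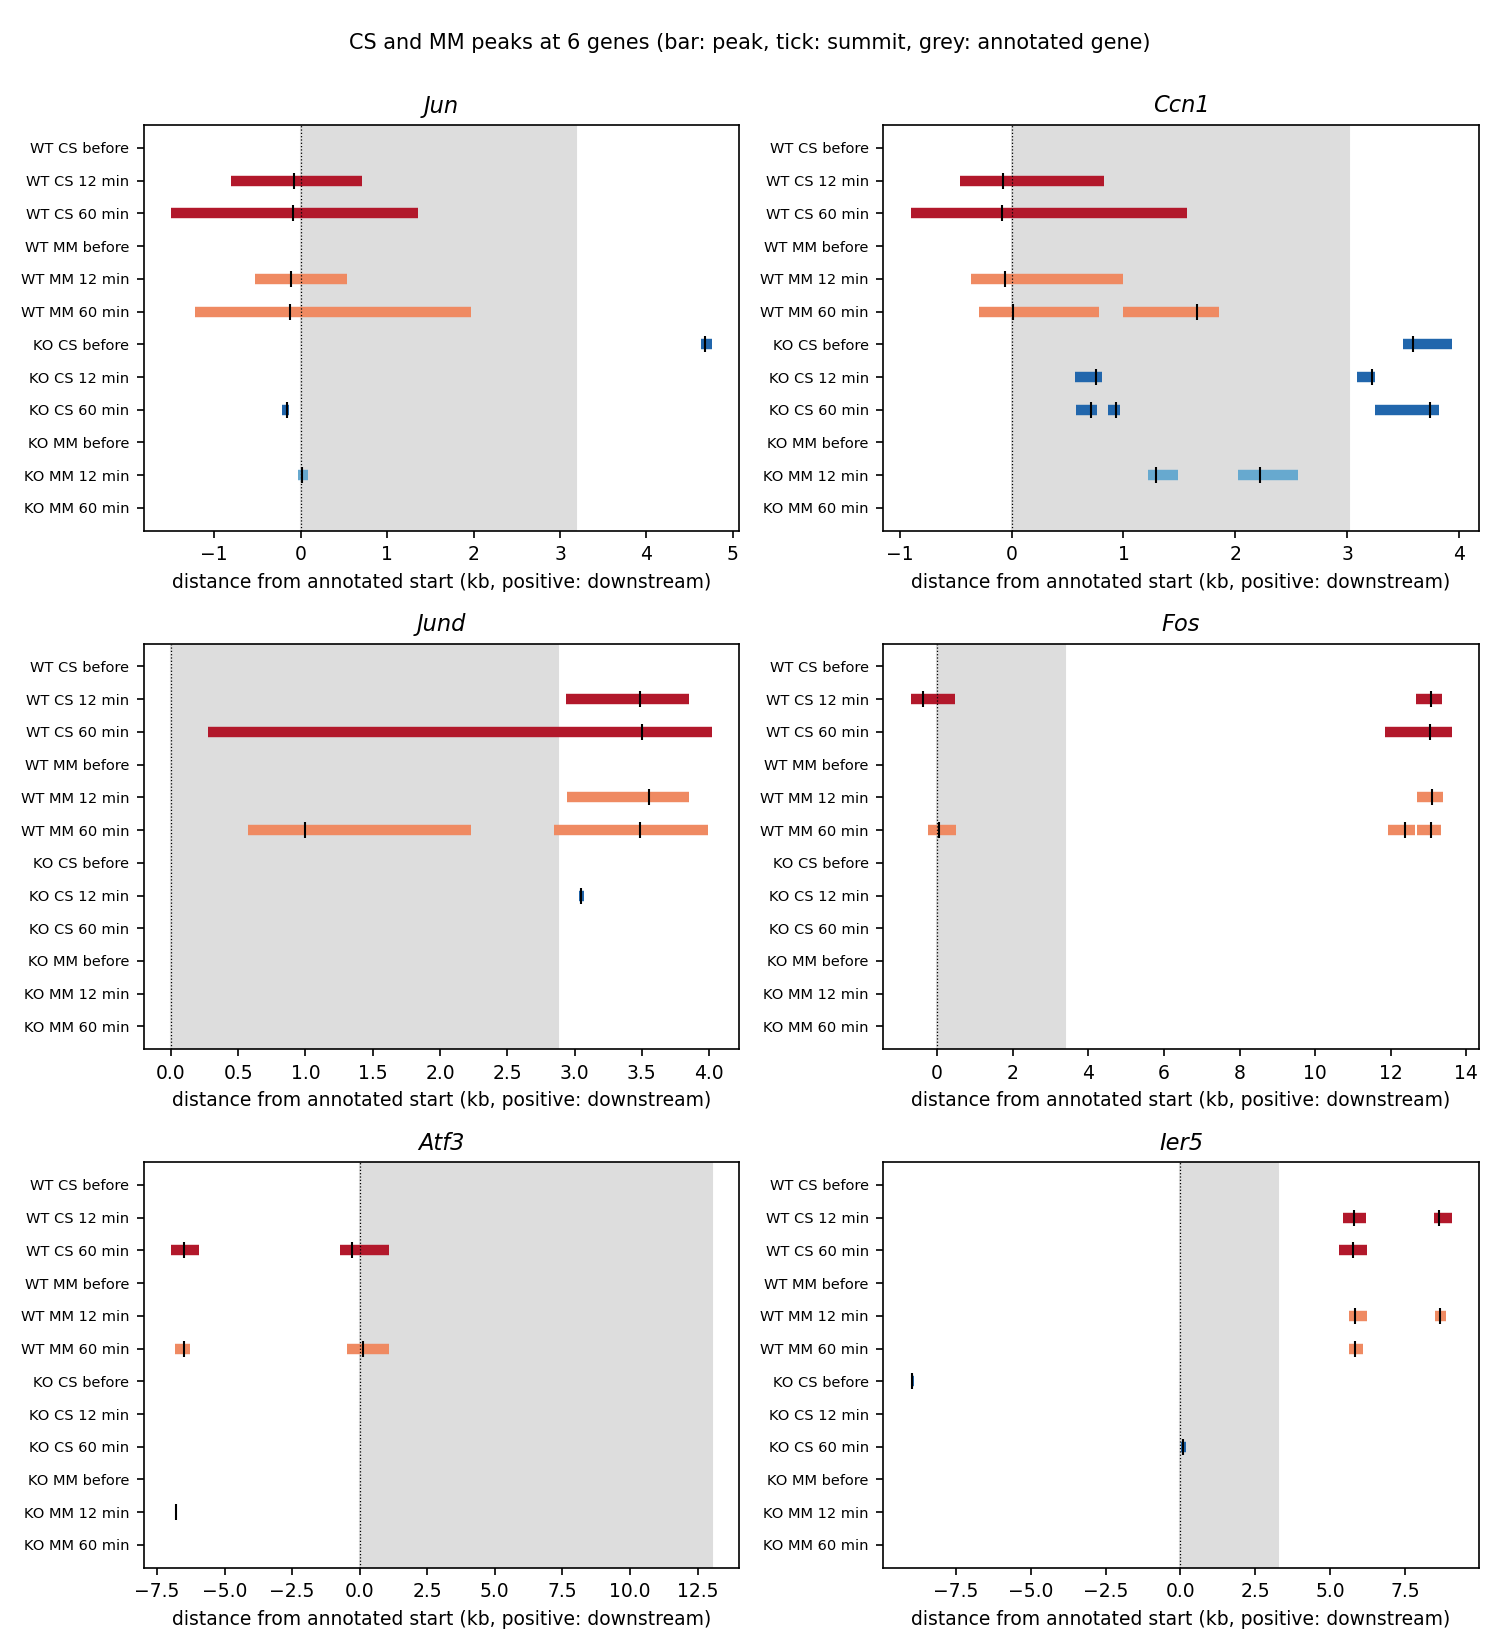
Position of every CS and MM peak at 6 genes, in kb from the annotated start along the direction of transcription; bars are peaks, ticks are summits, the grey area is the gene, WT is wild type and KO is HSF1 knockout. Wild type summits stand near the start at Jun and, with 1 further summit inside the gene, at Ccn1, beyond the gene end at Ier5 and, with 1 summit inside the gene, at Jund, and at both the start and a distant site at Fos and Atf3.

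The FOS proteins form AP-1 only with a JUN partner. Among their genes, Fos alone had a shared HSF1 region, a distal one with the summits of its 4 larger peaks 9664 to 9696 bp beyond the gene. At 12 min this distal site held a CS peak of 97 tags (rank 552, FDR 2.2%) and an MM peak of 63 tags (rank 470, FDR 0.88%). At 60 min it held a CS peak of 267 tags (rank 345, FDR 0.32%), an MM peak of 116 tags (rank 523, FDR 0.24%) and a second MM peak of 25 tags (rank 3249) with its summit 9002 bp beyond the gene. The fold enrichment at 60 min was 114.91 for CS, rank 230 of 4773, and 66.4 for the larger MM peak, rank 371 of 4614, or 4.82% and 8.04% of the way down their lists. These were the best ranks by fold of the 32 wild type peaks in the windows of the 10 genes.

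The distal Fos site lay close to the 10 kb edge of the window. The site at 60 min, chr12:85485734-85487503, held no annotated gene, and Fos was the nearest one at a gap of 8460 bp. The closest gene on the other side, the noncoding Gm32296, was 42048 bp away. No peak of any knockout list lay in the window of Fos. The nearest knockout peak just outside it, of 5 tags in the CS list at 60 min, was 10839 bp from the gene.

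At the Fos start each antibody gave a peak at a different time, so no shared region was formed. The CS list at 12 min had a peak of 73 tags (rank 790 of 1781, 12.6-fold, FDR 15.99%) with its summit 380 bp upstream, and the MM list at 60 min one of 30 tags (rank 2745 of 4614, 10.5-fold, FDR 22.83%) with its summit 39 bp inside the gene. By fold enrichment they ranked 1639 and 4054, 92.0% and 87.9% of the way down their lists.

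Fosb and Fosl1, which encode FosB and Fra-1, had no shared region. The only peak at Fosb was a knockout CS peak of 4 tags and 79 bp at 12 min, 6397 bp outside the gene. At Fosl1 the wild type MM list before heat shock had a peak of 19 tags (rank 154 of 449, FDR 100%), 4684 bp outside the gene and over the annotated start of Fibp. It was the single wild type peak at any of the 10 genes before heat shock, when 2.03% of all protein-coding genes had an MM peak. CS gave 0 of the 10 genes at that time, against 0.712%. The knockout lists at 60 min had peaks of 5 tags (MM, 1077 bp outside Fosl1) and 6 tags (CS, 703 bp outside, within Ccdc85b).

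Atf3, a stress-induced member of the ATF family that can pair with JUN, had wild type peaks only at 60 min and then at 2 sites. At the promoter, chr1:191182230-191184076, the CS peak held 120 tags (rank 1153, FDR 0.44%) and the MM peak 77 tags (rank 902, FDR 0.48%). At the upstream site, chr1:191189260-191190319, the CS peak held 125 tags (rank 1102, FDR 0.54%) and the MM peak 63 tags (rank 1154, FDR 0.25%). By tags the sites were alike.

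By enrichment and position the Atf3 sites differed. The upstream peaks had 72.3-fold (CS, rank 638 of 4773) and 51.0-fold (MM, rank 607 of 4614) enrichment, and their summits, 6493 and 6492 bp upstream, were 1 bp apart. The promoter peaks had 12.3-fold (CS, rank 4681) and 11.7-fold (MM, rank 3859), with summits 300 bp upstream and 112 bp inside the gene, 412 bp apart. The promoter peaks were the wider ones, 1821 and 1584 bp against 1060 and 557 bp. A knockout MM peak of 6 tags at 12 min lay under the upstream region, 312 bp from its CS summit, and none lay under the promoter.

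**Figure D3:**
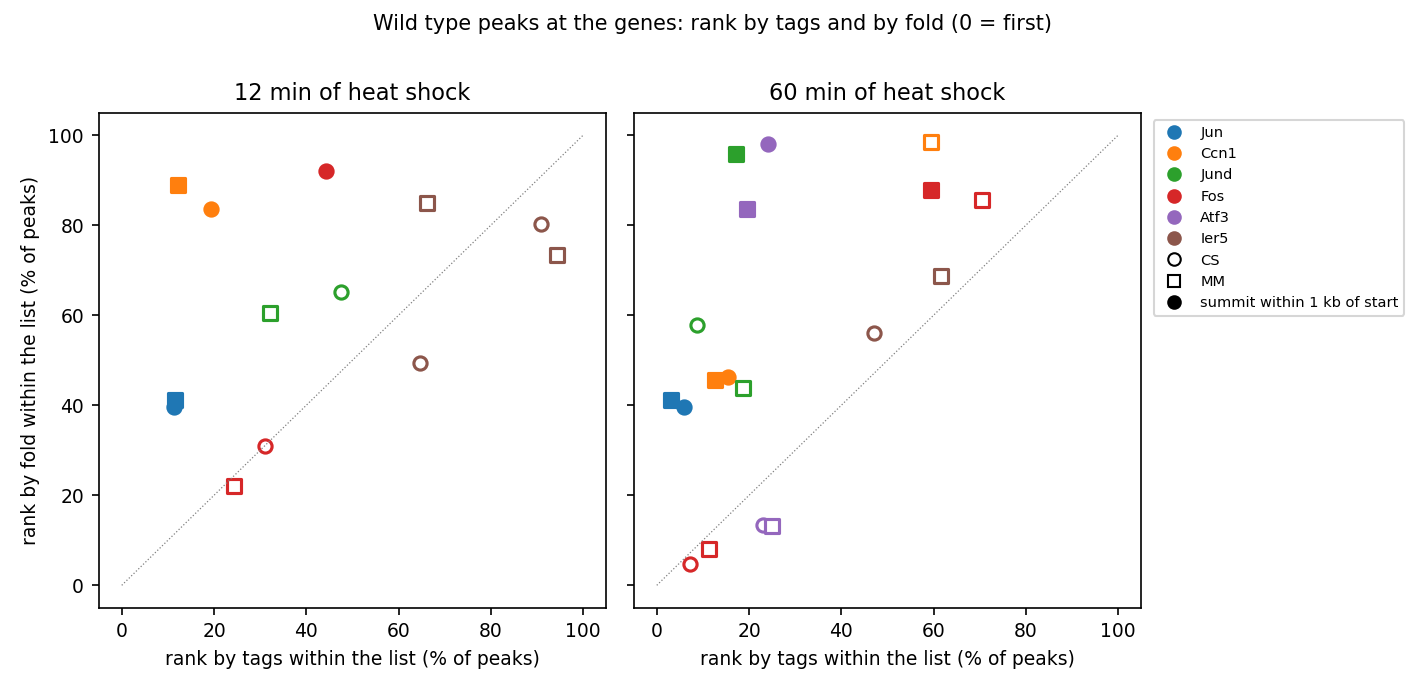
Wild type peaks at the genes at 12 and 60 min, placed by their rank by tags (x axis) and by fold enrichment (y axis) within their own list, both in % of peaks with 0 as the first; filled marks have the summit within 1 kb of the start. The distal Fos CS peak and larger MM peak at 60 min and the upstream Atf3 peaks stand low on both axes, the smaller distal Fos MM peak stands high on both, and the Atf3 promoter peaks stand at 98.1% (CS) and 83.6% (MM) by fold.

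CCN1 and CCN2 are secreted matricellular proteins that bind integrins, and their genes respond early to growth factors and to tension on the cell. Ccn1 carried HSF1 over its start from 12 min on, and Ccn2 had no wild type peak. At 12 min the Ccn1 promoter held a CS peak of 136 tags (rank 344, FDR 3.24%) and an MM peak of 98 tags (rank 234, FDR 4.6%). At 60 min it held a CS peak of 170 tags (rank 735, FDR 0.5%), an MM peak of 108 tags (rank 584, FDR 0.24%) and a second MM peak of 30 tags inside the gene (rank 2745, FDR 21.67%). By fold enrichment the promoter peaks ranked 1489 of 1781 and 1712 of 1927 at 12 min, and 2211 of 4773 and 2104 of 4614 at 60 min.

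The 4 promoter summits of Ccn1 lay 79 and 60 bp upstream at 12 min (CS and MM) and 89 bp upstream and 10 bp inside the gene at 60 min. They were 0.5 to 88.5 bp from the centre of TTCTAGAA, the letters in capitals in its promoter. The regions, chr3:145648992-145650447 at 12 min and chr3:145648133-145650890 at 60 min, also held the start of Gm17501, a noncoding RNA gene on the other strand, at position 145650077.

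Ccn1 was also the gene with the most knockout peaks, 8 of the 24. The CS lists had a peak of 25 tags before heat shock, peaks of 12 and 16 tags at 12 min, and peaks of 45, 12 and 18 tags at 60 min. The MM list at 12 min had peaks of 53 and 25 tags, and the other MM lists had none. The peaks of 53 tags (rank 131 of 5996) and 45 tags (rank 113 of 5964) had scores, minus 10 times the log10 of p, of 109.18 and 114.11, and they were the only knockout peaks at the 10 genes with p of 1e-10 or less.

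The knockout peaks of Ccn1 were spread over the gene and past its far end, not at its start. Their summits lay from 709 to 3739 bp downstream of the start, while the 4 promoter summits of the wild type lay between 89 bp upstream and 10 bp downstream. The remaining wild type summit, of the second MM peak at 60 min, was 1661 bp downstream, and each of the 8 knockout summits had this summit or the promoter summit of the same list as its nearest wild type summit, at 370 to 2078 bp. By tags the 8 ranked in the first 10.4% of their lists, and by fold enrichment, 5.64 to 8.33, beyond the first 98.2%. The 12 min region overlapped the knockout CS peak of 16 tags of its own time, and the 60 min region those of 12 and 18 tags. Their part in the wild type signal was not tested.

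Ccn2 had 5 knockout peaks and no other. The CS list at 12 min had a peak of 5 tags, and at 60 min the CS list had peaks of 11, 9 and 9 tags and the MM list 1 of 12 tags. The last of these overlapped a CS peak of 9 tags at chr10:24599428-24599656, 831 bp beyond the gene. It was the only knockout region of both antibodies at the 10 genes, and 2.55% of all protein-coding genes had one at 60 min. The counts for the knockout before heat shock and at 12 min were 0 of 10, against 2.37% and 2.01%.

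IER5 is an immediate early protein known to bind HSF1 and promote its activity. Ier5 had no wild type peak at its start and 2 sites beyond its far end. The nearer one, chr1:155093403-155094355, held CS peaks of 52 tags at 12 min (rank 1153, FDR 3.11%) and 69 tags at 60 min (rank 2245, FDR 0.45%). Its MM peaks held 28 tags at 12 min (rank 1274, FDR 3.24%) and 29 tags at 60 min (rank 2842, FDR 0.49%). The 4 summits lay 2487 to 2567 bp beyond the gene.

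The farther Ier5 site, chr1:155090578-155091159, was listed at 12 min only. Its CS peak held 33 tags (rank 1620 of 1781, FDR 18.9%) and its MM peak 16 tags (rank 1816 of 1927, FDR 39.78%), near the end of both lists. No knockout peak overlapped either site. The knockout CS lists had a peak of 11 tags at 60 min with its summit 94 bp inside the start of Ier5, and a peak of 6 tags before heat shock 8976 bp upstream.

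**Figure D4:**
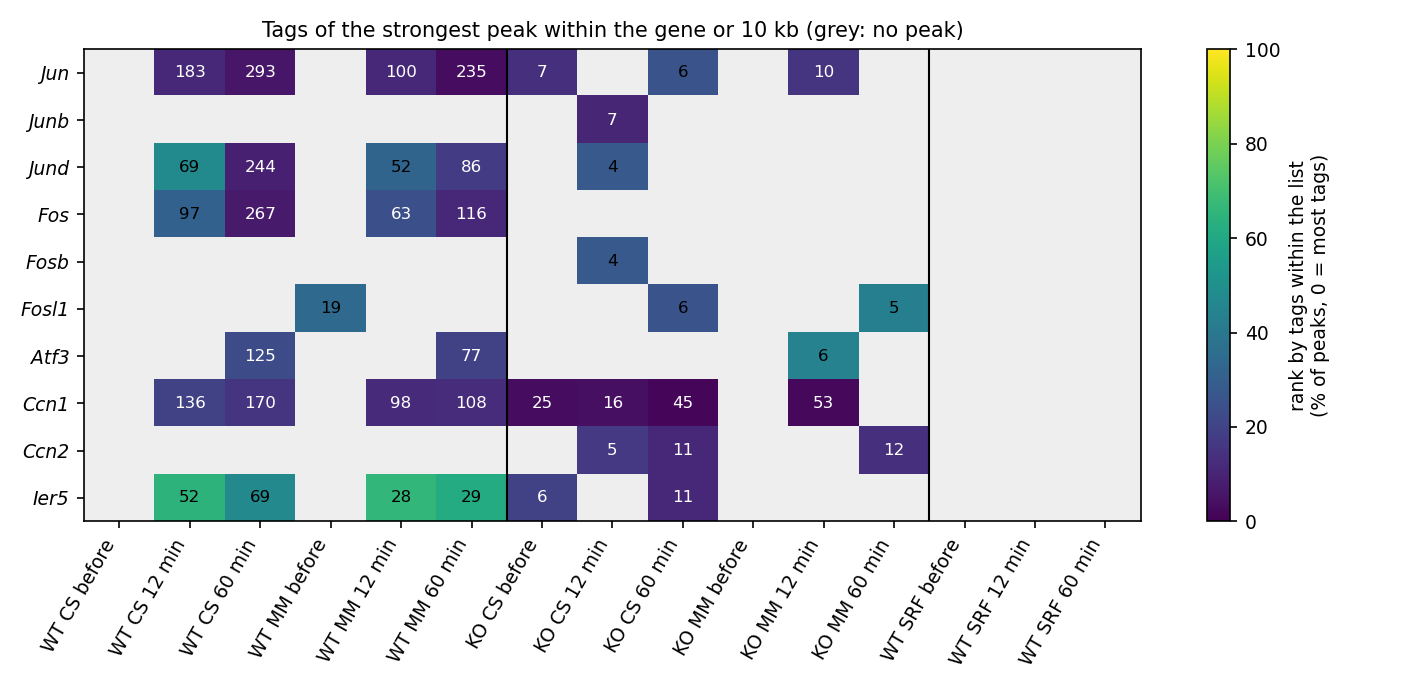
Tags of the strongest peak at each of the 10 genes (rows) in each of the 15 lists (columns), printed in the cell; colour gives the rank of that peak by tags within its own list in % (0 is the most tags), grey is no peak, WT is wild type and KO is HSF1 knockout. Heat shocked wild type lists are filled for 5 genes at 12 min and 6 at 60 min, and the SRF columns are empty.

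In HSF1 knockout cells, 3 of the 10 genes had a peak of either antibody before heat shock (Jun, Ccn1 and Ier5), 7 at 12 min (Jun, Junb, Jund, Fosb, Atf3, Ccn1 and Ccn2) and 5 at 60 min (Jun, Fosl1, Ccn1, Ccn2 and Ier5). Of all protein-coding genes, 26.4%, 26.5% and 24.2% had one. Among genes no longer than the longest of the 10 the shares were 16.1%, 15.5% and 15.5%. Over the 3 times together 9 of the 10 genes had a knockout peak, all but Fos. The share was 48% of all protein-coding genes and 33.4% of those no longer than the longest of the 10. With p of 1e-10 or less the counts were 0, 1 and 1, and the gene was Ccn1 at both times.

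The knockout peaks at the 10 genes were small. They held 4 to 53 tags (median 9.5) over 42 to 579 bp (median 127.5), and the wild type peaks held 16 to 293 tags (median 79) over 250 to 3747 bp (median 1006.5). These lists differ in depth, control and the fragment length used by the caller, so the values stand side by side and are not compared by a test. That length was 33 to 40 bp in the knockout lists. In wild type it was 40 and 45 bp before heat shock and 107 to 161 bp after it, and its effect on peak width was not tested. In the whole knockout lists the median peak held 4 to 7 tags.

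At 12 min, 3 of the 6 shared wild type regions at the 10 genes overlapped a knockout peak of the same time, those of Jun, Jund and Ccn1, against 3.97% of all 1412 wild type regions. At 60 min it was 2 of 7, at Jun and Ccn1, against 3.33% of all 3455. Among regions no shorter than the shortest one described here the shares were 4.27% and 4.99%. Before heat shock none of the 10 genes had a shared region, and 9.92% of the 121 regions of all genes overlapped one. The regions at Fos and Ier5 and both at Atf3 overlapped none of their own time. The overlapping knockout peaks held 4 to 18 tags, and none had p of 1e-10 or less.

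**Figure D5:**
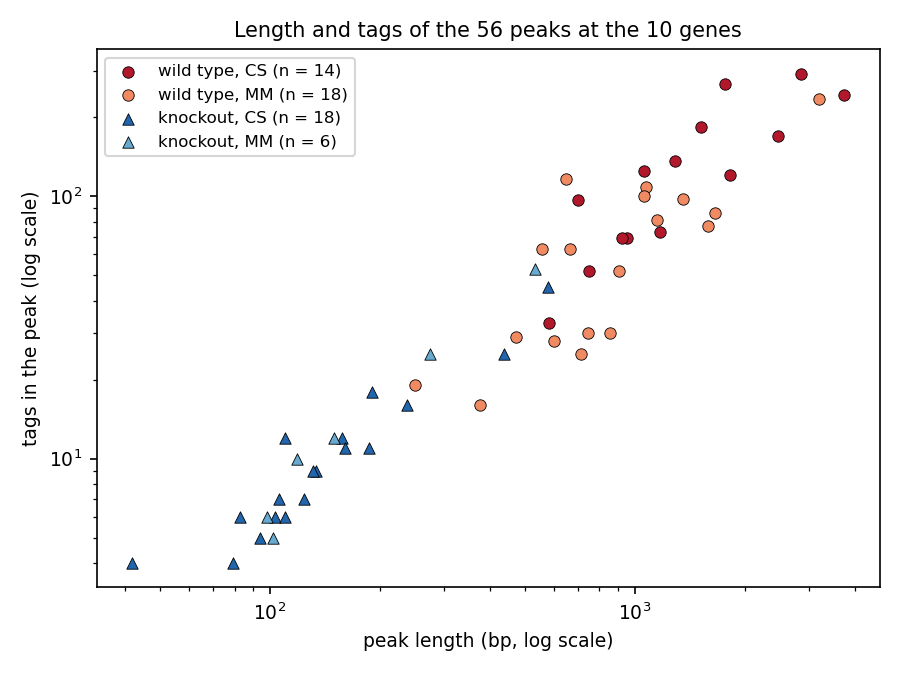
Length (x axis, bp, log scale) and tags (y axis, log scale) of the 56 peaks at the 10 genes, 14 CS and 18 MM peaks from wild type and 18 CS and 6 MM peaks from knockout cells. The largest knockout peaks, of 45 and 53 tags, are those of Ccn1 and lie among the smaller wild type peaks.

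No SRF peak was found at any of the 10 genes at any time. The SRF lists held 150 peaks in all, and 0.194% (unstressed), 0.254% (12 min) and 0.0878% (60 min) of protein-coding genes had one. That none was listed at this depth does not show that SRF was absent. The nearest SRF peak to any of them lay 33.2 kb from Fosl1 at 12 min, with a pileup of 5 tags and Mus81 as its nearest gene.

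Some strong wild type peaks lay outside the window. A site 41 kb upstream of Atf3 held a CS peak of 363 tags (rank 50 of 1781) and an MM peak of 214 tags (rank 55 of 1927) at 12 min, and of 420 (rank 115) and 262 tags (rank 109) at 60 min, and in the 60 min lists these ranks were ahead of those of the Atf3 peaks inside the window. It was listed by MM before heat shock as well, with 31 tags (rank 73 of 449), and overlaps the noncoding gene D730003I15Rik, annotated from position 191224454. At 60 min CS and MM peaks of 76 and 41 tags lay 11269 and 11293 bp from Fosl1, within Ctsw, just outside the limit that the distal Fos site met. CS and MM peaks 22942 to 22994 bp from Fosb, with Ercc1 as their nearest gene, held 63 and 33 tags at 12 min. At 60 min they held 98 and 49 tags. CS and MM peaks of 113 and 46 tags lay 44586 and 44576 bp from Jun at 60 min. Not all wild type peaks outside the window are named. The knockout MM list at 12 min had a peak of 7 tags 10187 bp from Junb.

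Of 78 other genes of the same pathways, none had a shared region before heat shock, 9 had one at 12 min and 15 at 60 min, to be read beside 5.33% and 11.2% of all genes. The 20 relatives of AP-1 and CREB/ATF gave 3 (Atf1, Creb5 and Maff) and then 4, with Crem. The 24 stress kinases and their phosphatases gave 1 (Dusp1) and then 2, with Dusp16. The 30 other immediate early and stress genes gave 5 (Btg1, Ier5l, Mcl1, Nr4a2 and Plk3) and then 8 (Btg1, Errfi1, Gadd45b, Gadd45g, Ier2, Mcl1, Plk3 and Trib1). The 4 other CCN genes gave none and then Ccn5.

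At 60 min the genes of these lists with the most CS tags were Gadd45g (298 CS and 53 MM tags), Dusp1 (292 and 166) and Gadd45b (261 and 190), beside 293 and 235 at Jun in the same lists. The mean of the CS and MM summits lay 1084.5 bp outside Gadd45g, 6280.5 bp outside Dusp1 and 4075.5 bp outside Gadd45b. At Jun it lay 100 bp outside the gene. GADD45 proteins are stress sensors that act on MAP kinase signalling, and DUSP1 is a phosphatase that switches off the kinases upstream of AP-1. Mcl1, a survival gene, had 130 and 90 tags, and Btg1, Atf1, Ier2 and Errfi1 had 92 to 104 CS tags and 27 to 68 MM tags. The 60 min regions of Dusp1 and of Ccn5 (77 CS and 57 MM tags) overlapped a knockout peak of their own time. A knockout peak of either antibody was found at 25 (unstressed), 37 (12 min) and 29 (60 min) of the 78 genes, beside 26.4%, 26.5% and 24.2% of all genes, and an SRF peak at 2 before heat shock (Ier3 and Trib1), 2 at 12 min (Mcl1 and Nr4a1) and 0 at 60 min, beside 0.194%, 0.254% and 0.0878%.

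The patterns over the 12 CS and MM lists were compared with those of all protein-coding genes. For each of the 5 genes with peaks in at least 4 lists, genes with peaks in exactly the same lists and not sharing them were ordered by the mean difference in the rank of their strongest peak. For Jun, with peaks in 7 lists and 10 such genes, the nearest were Usp34 at 6.58, Adamts2 at 9.40 and Trio at 10.3 percentage points. For Ccn1, with 8 lists and 10 genes, they were Pknox1 at 6.94, Gse1 at 13.0 and Lman2l at 18.3 points. For Jund, with 5 lists and 29 genes, they were B4galt1 at 4.28, Xiap at 4.81 and Clcn6 at 6.82 points. For Ier5, with 6 lists and 17 genes, they were Cry1 at 15.5, 4930432K21Rik at 17.8 and Il1rl1 at 20.5 points. For Fos, with the 4 heat shocked wild type lists only, 247 genes had the same lists, and Tpt1 was among the 3 nearest at 2.52 points. These distances are a description over lists that share cells and controls.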

How the data were processed

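The peak lists of 15 ChIP-seq libraries were analysed. The 10 genes and the lists of related genes were chosen with earlier results of these data known. Per the file headers, the authors used MACS 1.4.2 (p cutoff 1e-04) for the CS and MM lists, with IgG of the same time as control in wild type and no control in the knockout. For SRF they ran MACS2 2.0.9 with IgG as control. At most 1 tag per position was kept, per the file headers. The build was mm10, per the submitters' processing notes, and an aligner was not given in the sources used here. Each deposited peak carries a tag count, a score (minus 10 times the log10 of p), a fold enrichment (a ratio) and, with a control, an FDR in percent, all made by the authors. SRF peaks carry the deposited pileup (a signal), −log10 of p and q, and fold enrichment.

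Genes were placed by a RefSeq table of GRCm38.p6, whose primary assembly is that of mm10, and all 10 genes were found. The RefSeq promoter table gave a strand for 8 of them. Where a CS and an MM peak of 1 genotype and time shared 1 bp or more they were joined into a region with Python 3.11.15 and pandas 2.3.3 by code tested on simulated data. All 10 genes are named. Of the 78 related genes, those with a shared region at 60 min were counted and the 8 with the most CS tags given with values. For each gene with peaks in 4 or more lists, the 3 genes of most similar pattern are named, except that some of those for Fos are not reported here. Windows of 1, 5 and 50 kb, single antibodies, stricter p, FDR and overlap were tried as alternatives. No column of another sample was used, and counting error was not put on peaks because the deposited tags were selected by the caller.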

Additional observations from a re-analysis of the deposited data

How the results depend on the processing

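Of 61 alternative values, 18 moved by more than 1.5 times and 43 did not. Of the 43, 21 belong to a reported count of 0, which a narrower rule cannot lower and on which it says nothing about stability. A wider rule could raise such a count. A 50 kb window left 0 for shared wild type regions before heat shock and for SRF before heat shock and at 60 min. CS alone also left 0 for shared wild type regions before heat shock. For shared wild type regions, MM alone gave 1 gene before heat shock (Fosl1) where both antibodies gave 0. At 12 min a 1 kb window gave 3 genes and p of 1e-10 or less gave 2, against 5, and at 60 min 50% overlap gave 2 against 6. For knockout peaks before heat shock, a 1 kb window gave 1 gene, a 50 kb window 7, both antibodies 0 and p of 1e-10 or less 0, against 3. At 12 min both antibodies gave 0 and the stricter p gave 1, against 7. At 60 min a 50 kb window gave 9, both antibodies 1 and the stricter p 1, against 5. SRF at 12 min gave 1 gene (Fosl1) in a 50 kb window, against 0. Wild type regions over knockout peaks fell from 3 at 12 min and from 2 at 60 min to 0 with the stricter p, and rose to 4 at 60 min with knockout lists of any time. The CRE search gave 1 promoter (Jun) with TGACNTCA, added after seeing the data, against 0. Apart from the wider or narrower rule that each of these applies, the cause was not tested. No paired analysis was possible because each condition had 1 list and no result came from a test.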
